A study of Mus musculus with 33 samples.

Results

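Mitosis genes were 44 genes named for this purpose, whose products drive a cell into mitosis, build the spindle, watch over the chromosomes or divide the cell. They were chosen by name and not by a value, although earlier results of these data were known. Each was represented by the probe set (a group of short probes on the array) that carried its symbol alone and had the highest mean log2 signal over all 33 arrays. Such a probe set was found for all 44, of 18193 genes with a probe set of a single symbol, and all 44 lay among the 12867 genes that passed a filter on dim values.

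Each Mouse Genome 430 2.0 array held RNA from skin of the upper-mid back of 1 wild-type C57BL/6 mouse, so replicates were separate animals. Depilation of resting skin with wax and rosin, which starts a new growth phase and also injures the skin, was followed on 10 arrays, with 2 at each of 5 times given in days from waxing: D3 for early anagen, D5 for mid anagen, D8 as well as D12 for late anagen, and D17 for early catagen. All of these mice were female and at least 50 postnatal days old when waxed. The natural second hair cycle was followed on 23 arrays of untreated mice of both sexes, with postnatal days written as P: 4 in early anagen (P23 and P25), 3 in mid anagen (P27), 3 in late anagen (P29) and 1 more at P34, 6 in early catagen (P37 and P39), 3 in mid catagen (P41) and 3 in telogen (P44). Anagen is the growth of the follicle, catagen its regression and telogen its rest. The phase of each day came from the design text of the series. Labels of some P41, P44 and depilation samples carry the words early anagen, and there the day was followed. No undepilated skin of the age and sex of the depilated mice was among the arrays analysed here, so that depilation, age and, in part, sex cannot be told apart between the cycles.

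In dividing cells the kinase CDK1 with its B-type cyclins starts mitosis, Aurora and Polo kinases build the spindle, and a checkpoint holds back the anaphase-promoting complex until every chromosome is attached. Transcripts of these genes accumulate late in the cell cycle, and many of their promoters carry a cell cycle homology region (CHR), a short element bound by MuvB complexes, together with CCAAT boxes bound by NF-Y. In skin the main dividing cells are the matrix keratinocytes at the base of a growing follicle and the basal layer of the epidermis.

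The promoter stretches of 4 members are shown because textbooks describe these elements in them. They are RefSeq sequences on build GRCm38.p6, from 250 bases before to 50 bases after the start of the gene, written 5′ to 3′ in the direction of transcription, with each CHR (TTTGAA or TTCGAA) and each CCAAT box (CCAAT) in capitals. Ccnb2, the cyclin B2 gene, lies at chr9:70421505-70421804 (minus strand), Plk1, the Polo-like kinase gene, at chr7:122159185-122159484 (plus strand), Cdc20, an activator of the anaphase-promoting complex, at chr4:118437294-118437593 (minus strand), and Birc5, the survivin gene, at chr11:117848987-117849286 (plus strand).
Ccnb2: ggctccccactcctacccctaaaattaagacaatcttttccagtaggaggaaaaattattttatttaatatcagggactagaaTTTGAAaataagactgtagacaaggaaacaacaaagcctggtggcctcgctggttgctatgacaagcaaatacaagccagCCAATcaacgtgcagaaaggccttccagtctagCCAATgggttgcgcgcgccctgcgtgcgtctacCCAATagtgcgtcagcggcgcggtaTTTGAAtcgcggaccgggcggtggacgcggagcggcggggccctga
Plk1: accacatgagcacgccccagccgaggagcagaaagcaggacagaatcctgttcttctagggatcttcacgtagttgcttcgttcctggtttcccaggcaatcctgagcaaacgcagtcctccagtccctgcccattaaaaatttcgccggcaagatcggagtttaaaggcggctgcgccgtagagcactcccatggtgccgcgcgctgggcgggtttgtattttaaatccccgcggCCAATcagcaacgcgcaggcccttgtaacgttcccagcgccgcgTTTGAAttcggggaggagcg
Cdc20: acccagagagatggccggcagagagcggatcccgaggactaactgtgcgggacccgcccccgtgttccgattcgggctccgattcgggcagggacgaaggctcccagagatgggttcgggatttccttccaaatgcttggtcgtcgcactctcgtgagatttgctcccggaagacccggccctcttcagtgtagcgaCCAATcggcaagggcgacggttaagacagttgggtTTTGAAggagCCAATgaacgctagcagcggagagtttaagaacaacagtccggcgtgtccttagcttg
Birc5: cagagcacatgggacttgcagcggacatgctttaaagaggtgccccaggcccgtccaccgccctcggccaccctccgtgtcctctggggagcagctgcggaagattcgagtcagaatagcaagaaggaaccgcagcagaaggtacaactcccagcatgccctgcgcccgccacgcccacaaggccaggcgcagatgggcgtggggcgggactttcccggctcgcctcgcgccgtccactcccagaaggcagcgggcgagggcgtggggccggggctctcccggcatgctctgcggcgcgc

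The Ccnb2 stretch held CCAAT boxes that begin 87, 54 and 21 bases before the start and a CHR 5 bases after it, besides a CHR farther upstream. In the Cdc20 stretch a CHR that began 18 bases before the start stood between 2 CCAAT boxes. The Plk1 stretch had 1 CCAAT box before the start and a CHR after it. Neither word was found in the Birc5 stretch, which says only that these letters are not in this window. Of the 44 members 39 matched a promoter, and a gene with several starts was counted once. A CHR on either strand was found in 31 of the 39 (79.5%), against 21.7% of all 27025 genes with a promoter. A CCAAT box was found in 29 (74.4%), against 41.1% of all genes, and both words in 27 (69.2%), against 8.61%. Of the 12 others, 6 had 1 of the words, and 6 had neither: Birc5, Mad2l1, Melk, Ncaph, Nuf2 and Nusap1. At least 2 CCAAT boxes stood in 51.3% of the members, against 13.3% of all genes. An E2F site (TTTCCCGC, TTTGGCGC, TTTCGCGC or TTTGCCGC), a word of genes switched on at the start of DNA synthesis, was present in 3 members (7.69%), against 42.1% of 38 DNA replication genes and 2.6% of all genes. Among those DNA replication genes 23.7% had a CHR. Of other mitosis genes, not among the 44, 51 matched a promoter. A CHR was found in 54.9% of these, a CCAAT box in 64.7%, both words in 37.3% and at least 2 CCAAT boxes in 43.1%. Each of these shares lay between that of the members and that of all genes. An E2F site was more frequent in the other mitosis genes than in the members. Hits of different words overlapped in 1 of 41 promoters of members. Such matches are descriptions of letters and not binding sites.

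Values are MAS 5.0 signals, a linear scale of arbitrary units that had been scaled to a common mean by the authors. The trimmed mean of an array was 496.8 to 498.4 and its median 111.2 to 142.5. Tests used log2 signals after a floor of 34.6, the 25th percentile of the whole table, had replaced lower ones. Moderated linear models (limma) were fitted to 26988 probe sets, those above the array median on at least 3 arrays, and a gene was called at a Benjamini-Hochberg adjusted p under 0.05. Errors given with log2 differences are standard errors. Kif20a and Ndc80 had telogen arrays under the floor, so their differences from telogen are lower bounds. Markers of basal keratinocytes (Krt5, Krt14 and 6 others) summed to 58630.1 or more on every array.

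In the natural cycle mitosis genes were mostly highest in early anagen, the first phase sampled, and lowest in mid catagen and telogen. After depilation they were mostly highest at D5 or D8 and lowest at D12. Relative to telogen, the median of the 44 genes was 2.97 on the log2 scale at P23 (7.82-fold), 2.90 at P25, 2.71 at P27, 2.14 at P29, 1.89 on the P34 array, 1.53 at P37, 1.72 at P39 and 0.15 at P41. After depilation it was 2.19 at D3, 2.74 at D5, 2.67 at D8, 1.98 at D12 and 2.13 at D17, and no array of a depilated mouse had a median under 1.65. The highest natural mean fell on P23 for 32 members, on P25 for 10 (Anln, Bub1b, Cdca3, Hmmr, Kif11, Melk, Mki67, Ncapd2, Ndc80 and Prc1) and on P27 for 2 (Cenpa and Cenpe). The count of 32 at P23 depended on single mice, and was 16 without P23 replicate 2 and 9 without P25 replicate 1. Both P23 mice were male, while P25 had 1 male and 1 female, and the part of sex in this count was not tested. The lowest natural mean fell on P44 for 32 and on P41 for 12. After depilation the highest mean fell on D8 for 23 members, on D5 for 20 and on D3 for Anln alone. The count at D8 was 37 without D5 replicate 1 and 11 without D5 replicate 2. The lowest mean fell on D12 for 36, on D17 for 5 and on D3 for 3 (Bub1, Kif11 and Tpx2).

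Across the 6 phases of the natural cycle all 44 changed (limma F test of 22 arrays), as did 72.6% of all probe sets. Over the 5 depilation days 3 of 44 changed, namely Anln (adjusted p = 0.0221), Ect2 (adjusted p = 0.0454) and Kif2c (adjusted p = 0.0478), beside 10.2% of all. That count was 5 without D5 replicate 2, 1 without D17 replicate 2, and 0 without either D3, D8 or D12 array or without D17 replicate 1. The ratio of highest to lowest natural mean ran from 2.58 (Kif4) to at least 15.0 (Kif20a), with a median of 8.42. After depilation, where no resting skin was sampled, it ran from 1.28 (Racgap1) to 2.74 (Kif2c), with a median of 1.75.

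**Figure D1:**
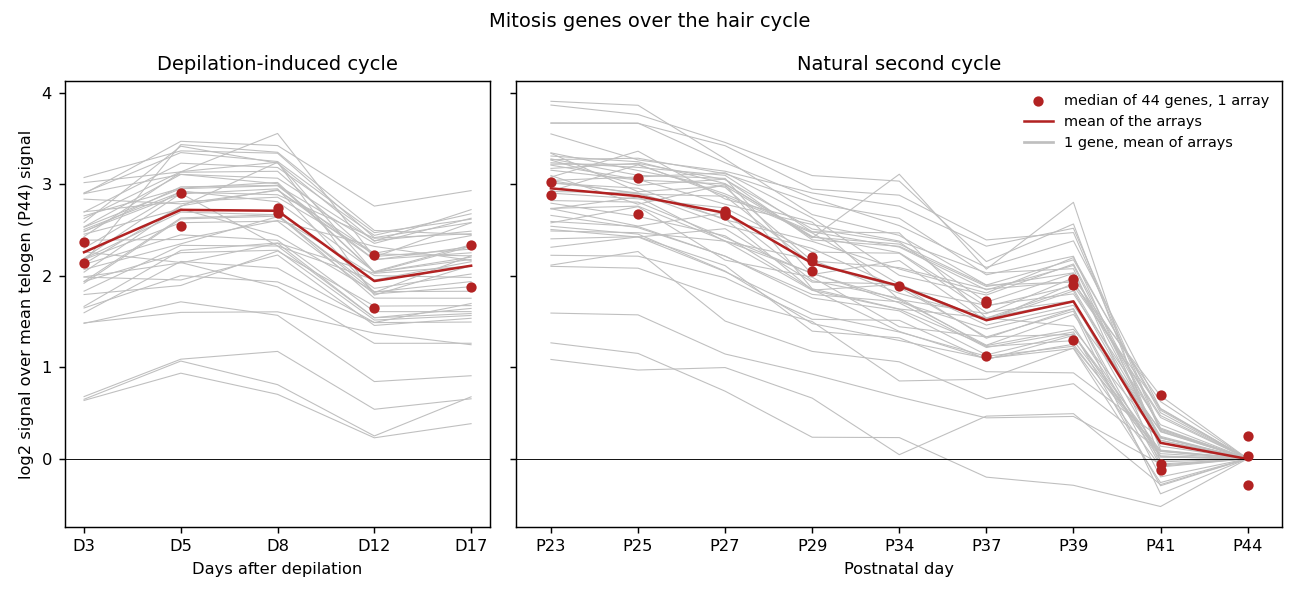
Log2 signal over the mean telogen signal (vertical axis) for each time point, with 5 depilation days on the left and 9 natural time points on the right. Grey lines are the means of single genes, red points the median of the 44 genes on 1 array, and the red line the mean of those points; the natural line lies at 2.95 at P23 and near 0 at P44, and every depilation array lies at 1.65 or above.

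Cyclin A2 (Ccna2), cyclin B2 (Ccnb2) and their kinase CDK1 (Cdk1) form the switch into mitosis. Signals of Ccna2 were 2746 and 2839 at P23, 2496 and 3119.8 at P25 and 2121, 2119 and 2353 at P27. They were 1521, 1609 and 1865 at P29, 1123 at P34, 901, 644 and 1089 at P37 and 709.7, 1224 and 1406 at P39. The last natural days gave 515, 250.0 and 299.7 at P41 and 241, 299.6 and 374 at P44. No array from P29 on reached those of P23 to P27, and the P41 and P44 arrays overlapped. In depilated skin Ccna2 was 1938 and 1549 at D3, 2415 and 2226 at D5, 2336 and 2407 at D8, 1597 and 1152 at D12 and 1235 and 1649.7 at D17. Both D12 arrays lay under both D8 arrays. Of the 3 genes Cdk1 had the widest natural range (12.7-fold), ahead of Ccnb2 (9.89-fold) and Ccna2 (9.3-fold).

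Mitotic kinases were represented by Aurka, Aurkb, Plk1, Nek2 and Melk. Aurora A (Aurka) matures centrosomes and the spindle poles. Its signals were 895 and 998 at P23, 799 and 928 at P25 and 695, 712 and 676 at P27. Thereafter it measured 586, 504 and 437 at P29, 459 at P34, 402, 266 and 332 at P37 and 306, 433 and 432 at P39. Regressing and resting skin gave 226, 109 and 132 at P41 and 137, 151 and 163 at P44. The 4 early anagen arrays all stood above the 3 of P27, and these above P29. After depilation Aurka measured 634 and 517 at D3, 820.3 and 619 at D5, 749.9 and 702 at D8, 476 and 384 at D12 and 378 and 519 at D17. Nek2, a kinase that separates centrosomes, departed from this course by the probe set used. It measured 531, 632 and 407 at P29, 834 at P34, 296, 485 and 469 at P37 and 431, 957 and 744 at P39. The P34 array and P39 replicates 2 and 3 were within the range of early anagen, where Nek2 was 848 and 1127 at P23 and 616 and 867 at P25. A dimmer probe set of Nek2, not of the kind that can bind several transcripts, did not: it measured 264 at P34 and 152, 216 and 280.1 at P39, all under its early anagen range of 335 to 511.

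Survivin (Birc5) and borealin (Cdca8) belong to the chromosomal passenger complex, which corrects faulty attachments of chromosomes. Birc5 signals were 1847 and 2182.4 at P23, 1781 and 1921 at P25 and 1582, 1469 and 1520.2 at P27. From late anagen on they were 878, 935 and 850.2 at P29, 927 at P34, 615, 527 and 723 at P37 and 613, 870.2 and 855 at P39. At the end of the cycle they were 373, 185 and 185 at P41 and 228, 269.7 and 247 at P44. A gap separated P27 from P29, with no overlap. Depilated skin gave Birc5 signals of 1504 and 1277 at D3, 1995 and 1694 at D5, 1942 and 1879 at D8, 1119.5 and 677 at D12 and 963 and 1378 at D17. Its D8 arrays lay within the range of natural early anagen, and its D12 arrays lay under it.

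The spindle checkpoint was covered by Bub1, Bub1b, Ttk and Mad2l1, which delay anaphase while kinetochores are unattached. Bub1 measured 1089 and 1123 at P23, 863 and 1228 at P25 and 856, 690.4 and 979 at P27. It measured 669.7, 578 and 705 at P29, 622 at P34, 396, 176 and 555 at P37 and 303, 511 and 587 at P39. It then measured 162, 57 and 57.9 at P41 and 50.1, 92.2 and 95 at P44. P37 replicate 2 was close to the P41 range, and the other early catagen arrays were not. In the depilation cycle Bub1 measured 337 and 335 at D3, 862 and 780.0 at D5, 752 and 796 at D8, 523 and 350.3 at D12 and 315 and 545 at D17. The D3 arrays were close together and under all later depilation arrays but D17 replicate 1. Ttk, the kinase MPS1, had means under telogen already in early catagen. It was 339, 231 and 397 at P37, 218, 324 and 367 at P39, 309.8, 242 and 213 at P41 and 362, 337 and 388 at P44. Its mean relative to telogen was -0.20 at P37, -0.29 at P39 and -0.52 at P41 on the log2 scale.

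Cdc20 and Ube2c act with the anaphase-promoting complex, the ubiquitin ligase that ends metaphase, and Cdca3 was grouped with them here. Cdc20 signals were 4448 and 5596 at P23, 3201 and 5950.0 at P25 and 3519, 3800.5 and 4239 at P27. They came to 2473, 2668 and 1612 at P29, 2092 at P34, 1768, 1491 and 2130.3 at P37 and 1358, 2106 and 2329 at P39. They came down to 943, 652 and 495 at P41 and 354, 474 and 712 at P44. Early and mid anagen overlapped, and the P25 pair was wide apart. Depilated skin had Cdc20 at 5054 and 3390.2 at D3, 6385 and 4016 at D5, 4850.0 and 5103 at D8, 2973 and 2318 at D12 and 2722 and 3181 at D17. D5 replicate 1 was the highest array of both cycles. With a group median of 2.89 over telogen at D3, these 3 genes led the 9 roles there, and chromosome structure genes came last with 1.87.

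Centromere and kinetochore genes were Cenpa, Cenpe, Cenpf, Spc25, Ndc80 and Nuf2. Cenpa encodes the histone variant that marks centromeres. Cenpa measured 1561 and 2080.5 at P23, 1512 and 1914 at P25 and 1795, 1794 and 1849.6 at P27. Its later values were 1124, 1223 and 1287 at P29, 1194 at P34, 909, 733 and 1001 at P37 and 857, 1077 and 1135 at P39. The final ones were 525.8, 332 and 342 at P41 and 379, 255 and 332 at P44. P27 lay inside the range of early anagen and above all of P29. After depilation Cenpa was 1401 and 1264 at D3, 1639.6 and 1593 at D5, 1889.9 and 2086 at D8, 1536 and 1052 at D12 and 1105 and 1422 at D17. D8 held the highest depilation arrays and replicate 2 of D12 the lowest.

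Spindle motors and microtubule proteins were Kif11, Kif2c, Kif4, Kif22, Tpx2, Nusap1 and Hmmr. Hmmr binds microtubules near the spindle poles. Signals of Hmmr were 950.4 and 939 at P23, 871 and 1059 at P25 and 661, 711 and 858 at P27. These were followed by 562, 558 and 614 at P29, 462 at P34, 391, 205 and 447 at P37 and 267, 405 and 469.7 at P39. They ended with 166, 98.4 and 94.4 at P41 and 88.7, 159 and 203 at P44. The telogen arrays spanned all 3 arrays of P41. Hmmr in depilated skin measured 866 and 697 at D3, 1083 and 818 at D5, 736 and 803 at D8, 549 and 460.2 at D12 and 515 and 494 at D17. Kif4, a chromosome-bound motor, had the narrowest natural range of all members, with 486 and 504 at P23, 445, 430.3 and 527 at P27 and 259, 190.4 and 258 at P44.

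Genes of chromosome structure were the proliferation marker Mki67, the topoisomerase Top2a, the condensin subunits Ncapg, Ncapd2, Ncaph, Smc2 and Smc4, and Cdca5, which guards cohesion between sister chromatids. Mki67 measured 5871 and 6312 at P23, 5236 and 7232 at P25 and 5266, 5364 and 5794 at P27. Its signals were 4818, 4323 and 4043 at P29, 3903 at P34, 2877, 1849.5 and 3097 at P37 and 2254, 3351 and 3328 at P39. Its signals ended at 1181, 547 and 520.3 at P41 and 601, 615 and 684 at P44. Replicate 1 of P41 was above all telogen arrays, and replicates 2 and 3 were under them. Mki67 in depilated skin was 4781 and 3504 at D3, 6847 and 5125 at D5, 5585 and 5891 at D8, 4166 and 2825 at D12 and 3906 and 4179 at D17. The protein of Cdca5 is sororin. In natural skin it was 1007 and 1093 at P23, 860.0 and 873 at P25 and 968, 863 and 896 at P27. From P29 it was 605, 569.8 and 547 at P29, 546 at P34, 453, 282 and 512 at P37 and 352, 457 and 553 at P39. It ended at 183, 97.2 and 112 at P41 and 61.5, 140.2 and 152 at P44. The natural arrays of P23 to P27, of P29 to P39, and of P41 and P44 formed high, middle and low groups without overlap. Its depilation signals were 742 and 578 at D3, 1367 and 994 at D5, 1064 and 987 at D8, 728 and 442 at D12 and 626 and 829.6 at D17. D5 replicate 1 exceeded every natural array. Smc4 was bright and had a natural range of 3.14-fold, with 4523 and 4608 at P23, 1449.6, 1453 and 1464 at P41 and 1583, 1448 and 1518 at P44.

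Cytokinesis genes were Kif20a, Kif23, Prc1, Racgap1, Ect2 and Anln, which form the central spindle and the contractile ring. Anillin (Anln) gave 2366 and 2647 at P23, 2293 and 2828 at P25 and 1901, 1866 and 2406 at P27. It went on with 1257, 1209 and 1268 at P29, 1182 at P34, 1112, 675 and 1021 at P37 and 660.3, 1003 and 1127 at P39. It ended with 726, 471 and 496 at P41 and 374, 504 and 563 at P44. P41 replicate 1 was within the range of early catagen. After depilation Anln measured 2424 and 2121 at D3, 2293 and 1909 at D5, 1676 and 1804 at D8, 1246 and 1034 at D12 and 1111 and 1159.5 at D17. D3 and D5 overlapped, and D3 replicate 1 lay within the range of natural early anagen while replicate 2 lay under it. Anln was the member with a highest depilation mean at D3, and Kif20a, a motor of the central spindle, had the widest natural range.

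**Figure D2:**
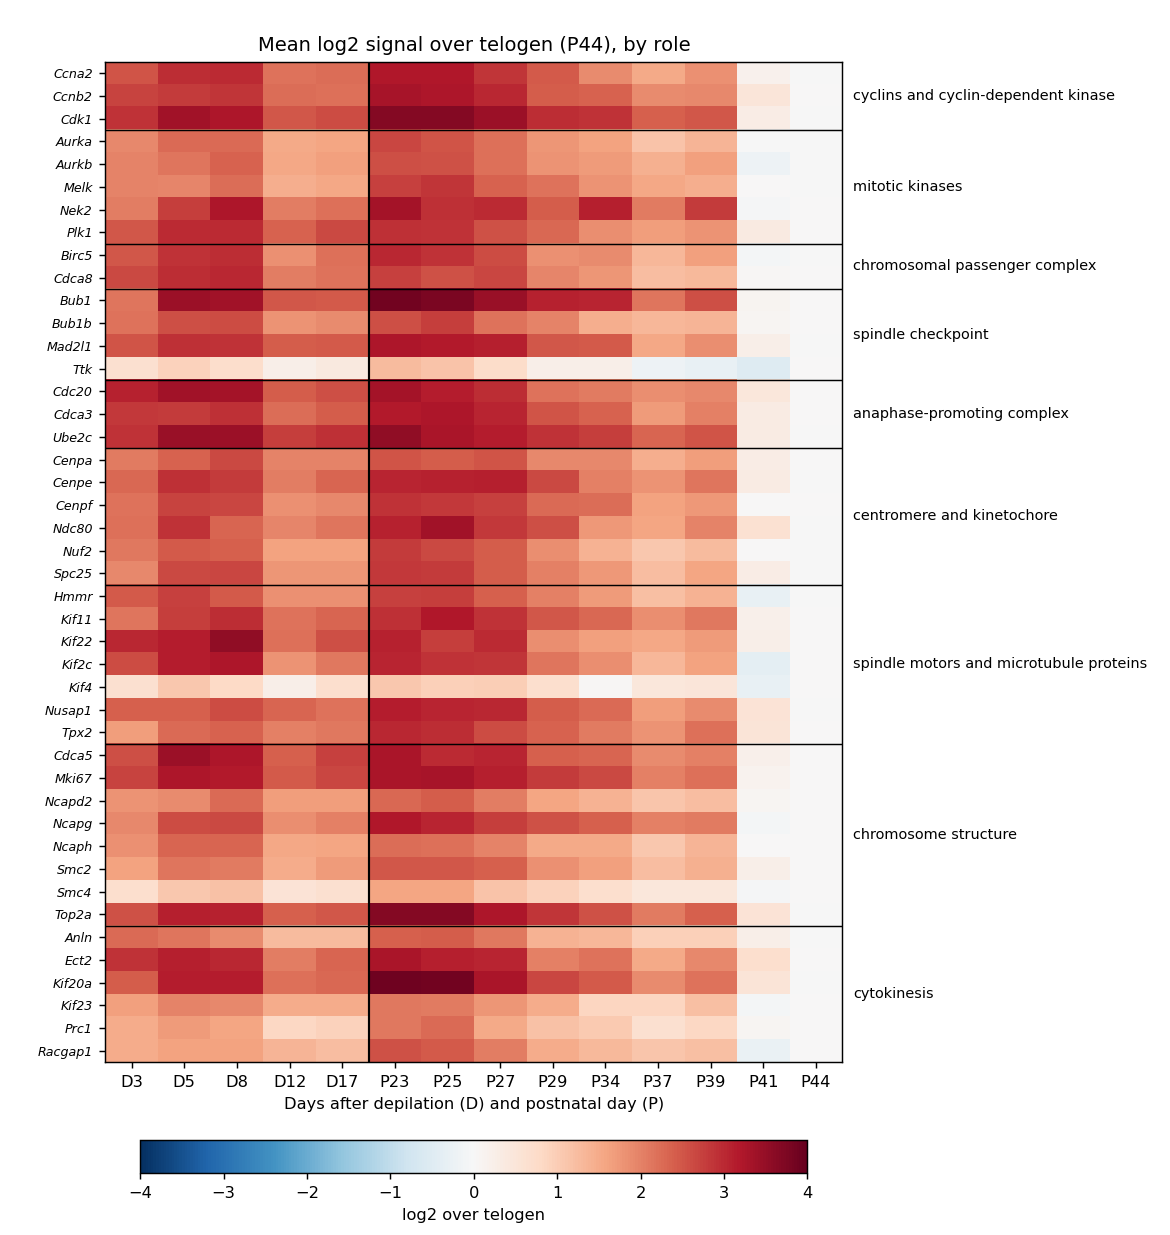
Mean log2 signal over telogen as colour (red higher, blue lower, scale from -4 to 4) for 44 genes in rows, grouped by role, and 14 time points in columns, depilation days left of the natural days. Columns P41 and P44 are pale for all roles, and in early anagen Kif4, Ttk and Smc4 are paler than the rest.

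The comparison of early anagen with telogen asked how skin entering growth differed from resting skin. Resting skin was sampled only at P44, in mice older than those of P23 and P25, and none was sampled before P23. Age and phase therefore cannot be told apart here, and a rise means a higher level in early anagen. All 44 members were higher in early anagen, where 13.5% of all probe sets were called higher. Their median log2 difference was 2.95, against -0.05 over all probe sets. Kif20a measured 887 and 1045 at P23 and 883 and 988 at P25, against 8.8, 85.7 and 89.6 at P44. The 4 early anagen arrays stood apart from the 3 telogen arrays, of which 1 was under the floor. Kif20a rose by at least 3.88 on the log2 scale, the checkpoint kinase Bub1 by 3.81 ± 0.25 (adjusted p = 3.19e-04) and Top2a by 3.67 ± 0.21 (adjusted p = 2.30e-04). The smallest rises were those of Kif4 (1.03 ± 0.14), Ttk (1.21 ± 0.12) and Smc4 (1.58 ± 0.11). Of 61 other mitosis genes 56 rose (median 1.81), led by the kinase gene Pbk (3.65 ± 0.34), Depdc1a (3.19 ± 0.34) and Cep55 (3.18 ± 0.28), and of 45 DNA replication genes 41 rose (median 1.68), led by Uhrf1 (3.12 ± 0.24). Markers of other cells differed too. Of 6 hair matrix markers (Shh, Lef1, Msx2, Hoxc13, Dlx3 and Foxn1) 5 were higher, with a summed signal of 5048 to 10336 in early anagen and 980.3 to 1237 in telogen. Of 13 leukocyte markers 7 were lower and 1 higher, and their sum was 17579 to 33221 in early anagen and 37540.0 to 56000.1 in telogen. Of 4 suprabasal and cornified cell markers 3 were lower (65655 to 68319 in early anagen and 89927 to 111992 in telogen), as were 3 of 8 basal keratinocyte, 2 of 6 muscle cell and 1 of 5 adipocyte markers. Their part in the result was not tested. In whole skin more dividing cells and more RNA per cell cannot be told apart.

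As growth went on, values were lower in small steps. Mid anagen was lower than early anagen for 2 of 44 members, against 9.27% of all probe sets, and 40 of 44 differences were negative (median -0.29), as were 51% over all probe sets. Prc1, which bundles the microtubules of the central spindle, measured 985, 1053 and 1172 at P27, against 1605 and 1655 at P23 and 1737 and 1879 at P25. Kif20a measured 616, 532 and 733 at P27. Neither gene's groups overlapped. Prc1 fell by 0.69 ± 0.12 on the log2 scale (adjusted p = 0.0108) and Kif20a by 0.61 ± 0.14 (adjusted p = 0.0269). The count was 5 without P25 replicate 1, 7 without P27 replicate 3, 0 without P27 replicate 2 and 1 without any of the other 4 arrays. It was 0 with either P23 or P25 alone as early anagen. Hair matrix markers were higher in mid anagen for 4 of 6 (9892 to 14089, against 5048 to 10336 in early anagen), and leukocyte markers lower for 5 of 13 (8294 to 14485, against 17579 to 33221). Muscle cell markers were lower for 4 of 6 (58495 to 75017 against 82949 to 102549), mesenchymal cell markers for 4 of 6 (94119 to 107212 against 121876 to 154382), suprabasal and cornified cell markers for 2 of 4 (42198 to 51150.5 against 65655 to 68319) and basal keratinocyte markers for 2 of 8. Their part was not tested.

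Late against mid anagen gave no call among the 44 or among all 26988 probe sets (0%, limma with Benjamini-Hochberg adjustment), and none among the 44 by the methods' t-test after the same adjustment. All 44 differences were negative all the same (54.8% over all probe sets), with a median of -0.47, and 32 had an unadjusted p under 0.05, against 11.2% of all probe sets. Birc5 was 878, 935 and 850.2 at P29, against 1582, 1469 and 1520.2 at P27, and Cdca8 was 1046, 879 and 865 at P29, against 1536, 1569.7 and 1545 at P27. Their groups did not overlap. They had the smallest p-values in limma (Birc5 -0.78 ± 0.11, adjusted p = 0.146, and Cdca8 -0.74 ± 0.13, adjusted p = 0.146).

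Early catagen against late anagen also had no call among members or all probe sets (0%) in limma, and none among members by the methods' t-test after adjustment, with a median of -0.51 and 27 at an unadjusted p under 0.05 (7.07% of all probe sets). Smc4, a condensin subunit, was 2239, 1698 and 2315 at P37 and 1889.7, 2186 and 2200.5 at P39, against 2889.6, 2695 and 3049 at P29. The groups did not overlap. Smc4 (-0.47 ± 0.12, adjusted p = 0.208) and the checkpoint gene Mad2l1 (-0.78 ± 0.22, adjusted p = 0.231) had the smallest p-values of limma there. Within early catagen no member passed between P39 and P37 in limma or the methods' t-test (0% of all probe sets in limma), and none had an unadjusted p under 0.05 in limma (1.85% of all probe sets did so as higher and 2.17% as lower). The median was 0.20, with 41 of 44 above 0, against 51.6% over all, but it was -0.02 without P37 replicate 2. Nek2 (0.73 ± 0.34) and Birc5 (0.32 ± 0.20) came first, each with a limma adjusted p of 0.979, and the dimmer Nek2 probe set gave 0.38.

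In the order of sampling from early anagen to telogen, the step with the most calls lay between early and mid catagen. There 43 of 44 members fell, against 17.9% of all probe sets called lower, with a median of -1.44. Nek2 measured 119, 76.8 and 92.6 at P41, against 296, 485 and 469 at P37 and 431, 957 and 744 at P39. Cdk1 was 502, 233 and 177 at P41, against 1377, 942 and 1247 at P37 and 956, 1388 and 1442 at P39. Neither gene's groups overlapped. Nek2 fell by 2.47 ± 0.33 on the log2 scale (adjusted p = 9.29e-04), Bub1 by 2.26 ± 0.45 (adjusted p = 0.00499) and Cdk1 by 2.14 ± 0.30 (adjusted p = 0.00111). By the dimmer Nek2 probe set, used when those that can bind several transcripts were left out, Nek2 stood at -1.02 (limma adjusted p = 0.0249), a smaller fall than that of Bub1 or Cdk1. Ttk was the member not called (-0.28 ± 0.22, adjusted p = 0.348). Of the other mitosis genes 43 of 61 fell, and of the DNA replication genes 30 of 45. All 6 hair matrix markers fell as well, summing to 4571 to 5745 in mid catagen and 14097 to 18428 in early catagen. Of 13 leukocyte markers 8 rose, with sums of 21056 to 28545 in mid catagen and 9028 to 20615 in early catagen. Muscle cell markers rose in 5 of 6, with sums of 93149 to 100504 in mid catagen and 53625 to 77599 in early catagen. Basal keratinocyte markers rose in 3 of 8, mesenchymal cell markers in 3 of 6 and adipocyte markers in 3 of 5. The part of these cells was not tested.

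No member passed between telogen and mid catagen in limma or in the methods' t-test, against 5.88% of all probe sets in limma, and 1 was higher in telogen at an unadjusted p under 0.05 in limma (14.2% of all). This was Ttk, with 362, 337 and 388 in telogen, against 309.8, 242 and 213 at P41. Its groups did not overlap (0.52 ± 0.17, adjusted p = 0.123). Next came Ect2, a regulator of the contractile ring (-0.69 ± 0.31, adjusted p = 0.224). Over the same step 5 of 6 hair matrix markers fell, with a median log2 difference of -2.25, beside -0.15 for the mitosis genes (0.11 without P41 replicate 1), and they summed to 980.3 to 1237 in telogen and 4571 to 5745 in mid catagen. In telogen the median of the 44 genes over the telogen mean was -0.28, 0.03 and 0.25 on the 3 arrays, and at P41 it was 0.70 on replicate 1, -0.13 on replicate 2 and -0.05 on replicate 3. Replicate 1 was the highest P41 array for 41 members.

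**Figure D3:**
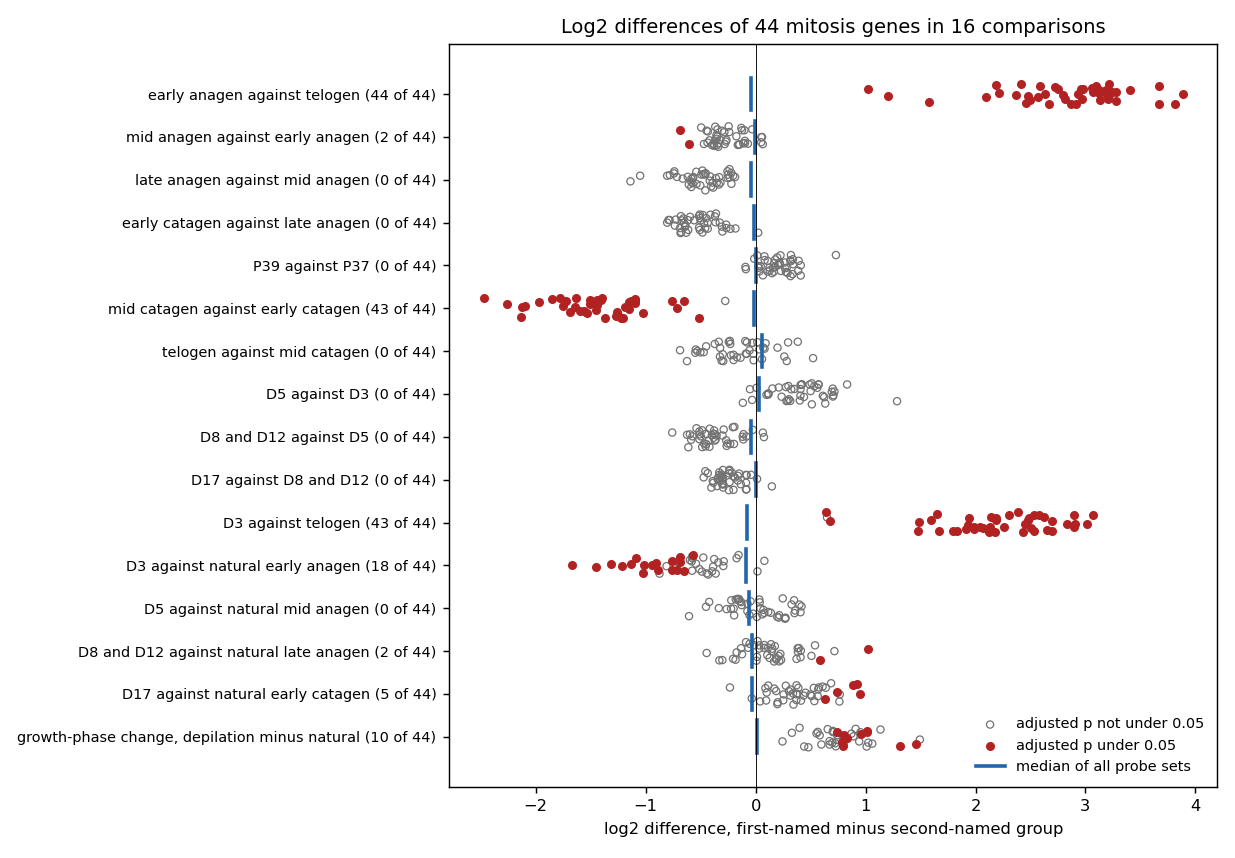
Log2 difference (horizontal axis) of each of 44 genes in 16 comparisons, first-named minus second-named group, with the number of genes called in brackets. Filled points passed an adjusted p under 0.05 in limma, open points did not, and the blue bar is the median of all probe sets. Called genes crowd in early anagen and D3 against telogen and in mid against early catagen.

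After depilation the genes were raised by D3. There 43 of 44 were higher than in telogen, against 13.4% of all probe sets, with a median of 2.19. This comparison shared the 3 telogen arrays with that of natural early anagen. Kif22, a chromosome-bound motor, measured 3632 and 3875 at D3, against 376, 453 and 585 in telogen. Cdk1 measured 1952 and 1441 at D3, against 165, 257 and 264 in telogen. Neither gene's groups overlapped. Cdc20 rose by 3.07 ± 0.33 on the log2 scale (adjusted p = 1.55e-06), Kif22 by 3.02 ± 0.34 (adjusted p = 2.83e-06) and Cdk1 by 2.90 ± 0.32 (adjusted p = 2.13e-06). Kif4 was the member not called (0.65 ± 0.25, adjusted p = 0.0511), with 486 and 276 at D3 and 259, 190.4 and 258 in telogen. Hair matrix markers were not among the genes raised at D3: none of 6 was called higher than in telogen and 2 were lower, and their sum was 735 to 873 at D3 and 980.3 to 1237 in telogen. Basal keratinocyte markers rose in 5 of 8, with sums of 123007 to 139865 at D3 and 91502 to 105258 in telogen. Mesenchymal cell markers fell in 5 of 6, with 50449 to 68728 at D3 and 126924 to 190376 in telogen, and leukocyte markers in 7 of 13, with 9874 to 24824 at D3 and 37540.0 to 56000.1 in telogen. The part of these cells in the result was not tested.

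From D3 to D17 no step passed for any member in limma. D5 against D3 had a median of 0.41, with 41 of 44 above 0 (52.5% over all probe sets) and 6 at an unadjusted p under 0.05 (12.4% of all). Of all probe sets 1.95% were called higher. Bub1 was 862 and 780.0 at D5, against 337 and 335 at D3, and Spc25, of the Ndc80 complex, was 1159 and 852 at D5, against 655 and 577 at D3. Neither overlapped, and they had the smallest p-values (Bub1 1.29 ± 0.28, adjusted p = 0.0608, and Spc25 0.69 ± 0.24, adjusted p = 0.171 in limma). Bub1 passed when probe sets were kept only if above the array median on at least 20 arrays (adjusted p = 0.0441). Over this step 5 of 6 hair matrix markers rose, summing to 8360.1 to 8612 at D5 and 735 to 873 at D3.

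D8 and D12 against D5 had a median of -0.38 and 10 members lower at an unadjusted p under 0.05 (10.1% of all probe sets), while 0.115% of all were called lower in limma. Anln (-0.57 ± 0.15, adjusted p = 0.132) and Ttk (-0.47 ± 0.13, adjusted p = 0.156) had the smallest p-values. With D12 alone as late anagen, 4 members passed, and with D8 alone the median was 0.01. D17 against D8 and D12 had a median of -0.29, none at an unadjusted p under 0.05 (1.51% of all probe sets did so as higher and 2% as lower) and none of all probe sets called (0%, limma), with Spc25 (-0.46 ± 0.21) and Anln (-0.31 ± 0.15) first, each with a limma adjusted p of 1.

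Set against natural early anagen, D3 skin had lower levels of 18 of 44 members (40.9%), against 26.1% of all probe sets called lower, with a median of -0.59. Bub1 measured 337 and 335 at D3, against 1089 and 1123 at P23 and 863 and 1228 at P25. Tpx2, which nucleates spindle microtubules, measured 575 and 527 at D3, against 1147 and 1707 at P23 and 1443 and 1258 at P25. Neither gene's groups overlapped. On the log2 scale the difference was -1.67 ± 0.41 for Bub1 (adjusted p = 0.00236), -1.46 ± 0.35 for Kif20a (adjusted p = 0.00183) and -1.32 ± 0.30 for Tpx2 (adjusted p = 0.00118). The condensin genes Ncapg (-1.21 ± 0.30), Smc4 (-0.90 ± 0.14) and Smc2 (-0.88 ± 0.23) were among the called ones, while Ncapd2 (-0.57 ± 0.24, adjusted p = 0.0528) and Ncaph (-0.39 ± 0.21, adjusted p = 0.136) were not. Kif22 (0.08 ± 0.32) and Cdca8 (0.02 ± 0.24) were the 2 members above 0. The count was 8 without D3 replicate 2, 12 without P25 replicate 2, and 11 with P25 alone as early anagen. Of the other mitosis genes 39 of 61 were lower and 2 higher, and of the DNA replication genes 33 of 45 were lower and 1 higher. Of the hair matrix markers 5 of 6 were lower at D3, summing to 735 to 873 there and to 5048 to 10336 in natural early anagen, 6 of 8 basal keratinocyte markers were higher (123007 to 139865 against 74463 to 83095) and 5 of 6 mesenchymal cell markers lower (50449 to 68728 against 121876 to 154382). Higher too were 2 of 6 muscle cell, 2 of 5 adipocyte and 1 of 13 leukocyte markers, while 3 leukocyte markers and 1 adipocyte marker were lower. Their part was not tested.

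Between D5 and natural mid anagen no member passed in limma, where 23.6% of all probe sets were called in either direction. None had an unadjusted p under 0.05 in limma (14.5% of all did so as higher and 21.1% as lower), and the median was 0.02, of either sign when single arrays were left out. Nusap1, a microtubule-bundling protein, was 1039 and 1047 at D5, against 1413, 1632 and 1736 at P27, and Plk1 was 1022 and 799 at D5, against 712, 709.5 and 613 at P27. They had the smallest p-values in limma (Nusap1 -0.61 ± 0.31, adjusted p = 0.167, and Plk1 0.42 ± 0.25, adjusted p = 0.246), although the groups did not overlap.

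D8 and D12 were higher than natural late anagen for 2 members (4.55%), against 10.6% of all probe sets called higher. Kif22 was 5624 and 5268 at D8 and 2368 and 1926 at D12, against 2076, 1824 and 1251 at P29. Cdca8 was 1921 and 1978 at D8 and 1167 and 835 at D12, against 1046, 879 and 865 at P29. In both genes the D8 arrays were above all P29 arrays and the D12 arrays overlapped them. Kif22 was higher by 1.02 ± 0.29 (adjusted p = 0.0111) and Cdca8 by 0.58 ± 0.21 (adjusted p = 0.0467). With D12 alone neither was called (Kif22 0.35, Cdca8 0.09), and with D8 alone 10 members were. Without probe sets that can bind transcripts of several genes no member was called, and Kif22 was at 0.51 and Cdca8 at 0.12. The count was 0 without P29 replicate 3, 3 without D12 replicate 2, and 1 without any of the other 5 arrays. Of 8 basal keratinocyte markers 3 were higher at D8 and D12 (71347 to 90960.5 against 63274 to 69189 in natural late anagen), and of 13 leukocyte markers 4 (14069 to 19277 against 8272 to 10532). Of 4 suprabasal and cornified cell markers 3 were higher (55813 to 81716 against 28701 to 31356), with a median log2 difference of 1.61. Mesenchymal cell markers were lower in 3 of 6 and higher in 1 (54437 to 71802 against 82951 to 120981), 1 of 6 muscle cell markers was higher and 1 of 5 adipocyte markers lower. Their part was not tested.

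D17 was higher than natural early catagen for 5 members (11.4%), against 5.5% of all probe sets called higher. Plk1 was 694 and 731 at D17, against 486, 266 and 386 at P37 and 295, 449 and 490.1 at P39. Cdca8 was 948 and 1249 at D17, against 729.6, 409.5 and 595 at P37 and 462, 741 and 596 at P39. In both genes the D17 arrays were above all 6 natural ones. The log2 difference was 0.95 ± 0.31 for Kif22 (adjusted p = 0.038), 0.92 ± 0.23 for Cdca8 (adjusted p = 0.00814) and 0.89 ± 0.23 for Plk1 (adjusted p = 0.00964), and Birc5 (0.74 ± 0.22) and Ttk (0.63 ± 0.19) passed as well. The count was 0 without D17 replicate 2, 2 without D17 replicate 1, P37 replicate 2 or P39 replicate 1, and 0 in a fit of the arrays compared alone. Kif22 was not called without P37 replicate 3 either (0.96). Without probe sets that can bind several transcripts 3 members were called, and Kif22 (0.54) and Cdca8 (0.50) were not among them. Of 6 mesenchymal cell markers 3 were lower at D17 (54162 to 57164 against 64870.0 to 123454 in natural early catagen) and 1 of 4 suprabasal and cornified cell markers was higher, and their part was not tested.

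The growth-phase change, late minus early anagen, differed between the cycles for 10 members (22.7%), all higher in the depilation cycle, against 10.6% of all probe sets called higher. In the depilation cycle (D8 and D12 minus D3) the median change was 0.05, with 25 of 44 above 0. In the natural cycle (P29 minus P23 and P25) it was -0.72, with all 44 below 0. The depilation value averages unlike days, since the median over telogen was 2.19 at D3, 2.67 at D8 and 1.98 at D12. D8 and D12 were not taken alone for this change. Kif20a changed by 0.25 after depilation and -1.22 naturally, a difference of 1.46 ± 0.46 (adjusted p = 0.0323). Nek2 changed by 0.60 after depilation and -0.71 naturally (1.31 ± 0.44, adjusted p = 0.0411). The spindle motor gene Kif11 changed by 0.43 after depilation and -0.59 naturally (1.02 ± 0.33, adjusted p = 0.0341). Birc5, Cenpa, Ncapd2, Ncaph, Prc1, Smc4 and Ttk passed as well, and Bub1, with 1.49 ± 0.55, did not (adjusted p = 0.0602). These values rest on the same D3 and early anagen arrays as the direct comparison of the 2 groups. The count was 1 without D12 replicate 1, 2 without D3 replicate 1, D3 replicate 2 or P23 replicate 2, 3 without D8 replicate 2 or P29 replicate 3, 4 without P25 replicate 2, 5 without D8 replicate 1, and 6 without P29 replicate 1 or P29 replicate 2. Kif20a lost its call without P23 replicate 2, P29 replicate 3, either D3 array, D8 replicate 2 or D12 replicate 1. Nek2 lost it without P23 replicate 2, P25 replicate 2, P29 replicate 1 or 3, D3 replicate 1, either D8 array or D12 replicate 1, and Kif11 without either P23 array, P25 replicate 2, P29 replicate 2 or 3, either D3 array, D8 replicate 2 or D12 replicate 1. By the dimmer Nek2 probe set the difference was 0.85 and was not called. Of the DNA replication genes 19 of 45 passed as higher in the depilation cycle and 1 as lower (median 0.83). Of the other mitosis genes 18 of 61 passed, all as higher (median 0.70). Of the hair matrix markers 5 of 6 had a difference in the same direction that passed (median 2.93), as did 5 of 13 leukocyte, 3 of 6 mesenchymal cell and 1 of 4 suprabasal and cornified cell markers, while 2 of 5 adipocyte markers and 1 of 8 basal keratinocyte markers passed in the other direction. Their part was not tested.

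**Figure D4:**
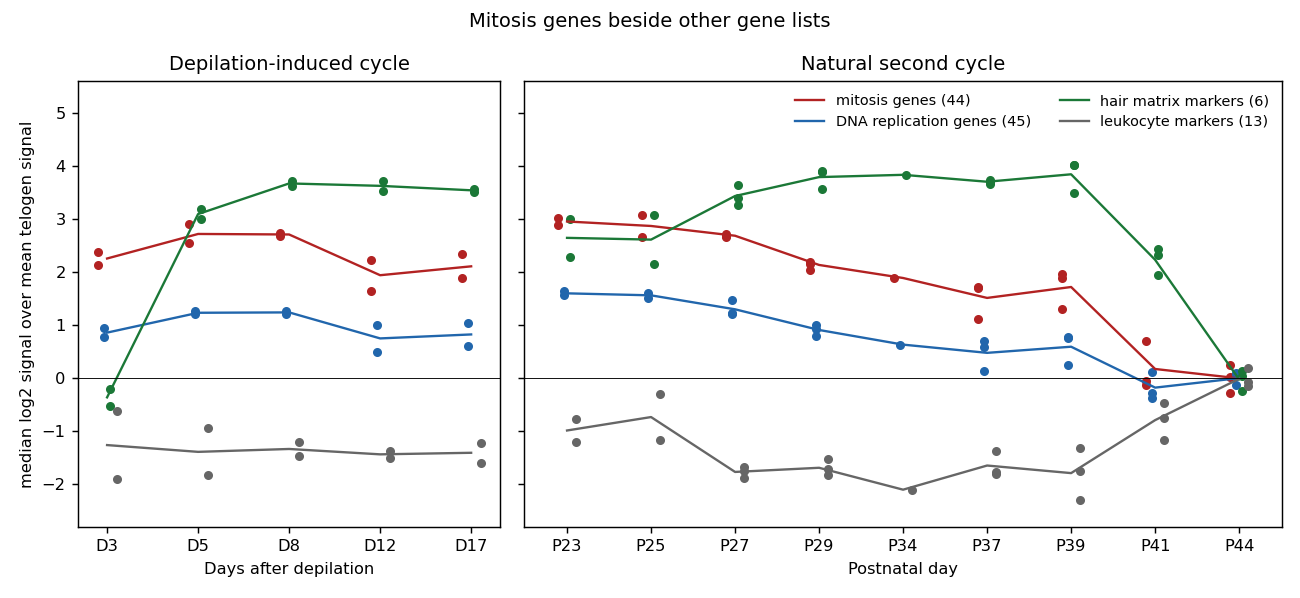
Median log2 signal over telogen (vertical axis) of 4 gene lists on each array (points) and its mean per time point (lines), depilation days on the left and natural days on the right. At D3 the mitosis genes lie at 2.14 and 2.37 while the hair matrix markers lie at -0.52 and -0.20, and at P41 the mitosis genes lie at -0.13 to 0.70 while the hair matrix markers lie at 1.95 to 2.43.

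Arrays of a time point tended to differ in most members together. The pooled replicate SD of a member was 0.15 (Smc4) to 0.50 (Bub1) on the log2 scale, with a median of 0.36. D12 replicate 2 was the lowest of the 4 late anagen arrays after depilation for all 44 members, and P37 replicate 2 the lowest of the 6 early catagen arrays for 33. P25 replicate 2 was the highest of 4 early anagen arrays for 25 and P25 replicate 1 the lowest for 33. D3 replicate 1 exceeded replicate 2 for 41 members, and D17 replicate 2 exceeded replicate 1 for 40. As a description, each member's log2 signal correlated with the median of the other members over 33 arrays with r of 0.80 to 0.99 (median 0.98), over the natural arrays alone with 0.78 to 0.99, and over the 10 depilation arrays with 0.62 (Tpx2) to 0.98 (Ccna2). These points share arrays, their scaling and the phases.

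Other probe sets of the same genes mostly moved alike. Of 41 further kept probe sets in 27 members, 33 were higher in early anagen than in telogen, 7 were not called and 1 was lower, a Nek2 probe set (-0.79 ± 0.21, adjusted p = 0.0304), the dimmest of the 3 of this gene. Those not called included probe sets of Cenpe (0.17), Cenpf (0.07) and Tpx2 (-0.08).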

How the data were processed

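Dorsal skin of 33 mice was profiled on Mouse Genome 430 2.0 arrays, 1 mouse per array. The authors deposited linear signal intensities of MAS 5.0 (version not stated in the sources used here), scaled to a common trimmed mean and not log transformed. Array scaling of this kind makes values relative to the total signal of an array, and the small number of arrays limits the precision. Probe sets were named from the platform's table: 34945 had 1 symbol, 932 several and 9160 none. Values were floored at the 25th percentile, put on the log2 scale and kept where above the array median on at least 3 of 33 arrays. Groups were compared with limma 3.58.1 in R 4.3.3, in fits of the arrays of both phases (natural phases), of the 10 depilation arrays (depilation days) or of all 33 with a mean per time point (between cycles, and D3 against telogen), with Benjamini-Hochberg adjustment over 26988 probe sets. The methods' t-test, a one-way analysis of variance between adjacent phases, was run on the natural phase comparisons with a threshold of p under 0.01. Its input here was the same MAS 5.0 log2 values of all kept probe sets, whereas the authors had applied it to profiles of hair cycle-regulated probe sets after a further transformation. Among the tests P34, with 1 array, entered only an alternative and the joint fit. The descriptions of time points, peaks and ranges included it. The limma fits were tested on simulated arrays with known changes, and the descriptions of timing, promoters and outliers were not. Tables and plots used pandas 2.3.3 and matplotlib 3.10.9.

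Values in every array are given for the first member of each role by the alphabet and for Mki67. Otherwise the text names, in each comparison, the 3 called members with the largest change in each direction or, with none called, the 2 with the smallest p, and members with extreme ranges or another peak. Members, lists and rules were chosen with earlier results of these data known. Genes named beside these were chosen after their values were seen. Alternatives changed the floor, filter, normalization, probe sets, fit, test, covariates, replicate block and time points, and left out single arrays.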

Additional observations from a re-analysis of the deposited data

Results flagged for a closer look

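Of 132 groups of values examined, 4 held an array far from the others by Dixon's criterion, which chance alone meets in about 1 in 20 groups. Ube2c measured 3562 on P23 replicate 2, against 2365 to 2519 on the other early anagen arrays. Kif11 measured 1231 on P25 replicate 2, against 827 to 831 on the others of that phase. Ndc80 measured 88.4 on P37 replicate 2, under the 152 to 195 of the other early catagen arrays. Nusap1 measured 777 on D12 replicate 2, under the 1184 to 1261 of the other late anagen arrays after depilation.

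The growth-phase change differed between the depilation and natural cycles by limma's test of the difference for 10 of 44 members, among them Kif20a (1.46 on the log2 scale), Nek2 (1.31) and Kif11 (1.02). Single omitted arrays moved that count to between 1 and 13. The change was also higher in the depilation cycle for 19 of 45 DNA replication genes and 18 of 61 other mitosis genes.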

How the results depend on the processing

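Alternatives followed only the genes named in each comparison by largest change or smallest p. None of their differences changed sign, but the median of the 44 genes did in 5 comparisons with few or no calls. Other members named in the text, such as Kif22 and Cdca8 for D3 against natural early anagen, were not followed. For P39 against P37 it was 0.20, and -0.02 without P37 replicate 2. For telogen against mid catagen it was -0.15, and 0.11 without P41 replicate 1. For D8 and D12 against D5 it was -0.38, and 0.01 with D8 alone. For D5 against natural mid anagen it was 0.02, and ran from -0.17 to 0.14 with single arrays left out. For D8 and D12 against natural late anagen it was 0.13, and -0.03 without D12 replicate 1 and -0.25 with D12 alone. Of the values of the genes followed, 570 stayed on their side of the threshold, 78 lost a call and 2 gained a call. Where a count moved, the cause was not tested. Between mid and early anagen 2 members were called, against 4 with the floor at the 40th percentile, 4 with the stricter filter, 1 with no filter, 1 without probe sets of shared transcripts, 1 by the methods' t-test after adjustment, 4 at the methods' own threshold, and 0 with P23 or P25 alone. Late against mid anagen gave 1 in the joint fit and 11 at that threshold, and early catagen against late anagen gave 1 there. D5 against D3 gave 1 with the stricter filter, D8 and D12 against D5 gave 4 with D12 alone, and D3 against natural early anagen gave 11 with P25 alone. D8 and D12 against natural late anagen, with 2 calls, gave 1 with no filter, 0 without probe sets of shared transcripts, 4 with P34 added, 10 with D8 alone and 0 with D12 alone. D17 against natural early catagen, with 5, gave 3 without probe sets of shared transcripts, 3 with sex as a covariate and 0 with only the arrays compared. The growth-phase change, with 10, gave 3 with no filter and 4 after quantile normalization. The F test over depilation days, with 3, gave 1 with the floor at the 10th percentile, 1 with no filter, 6 with the stricter filter and 1 after quantile normalization.

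With single arrays left out, counts ran from 0 to 7 for mid against early anagen, 37 to 43 for mid against early catagen, 41 to 43 for D3 against telogen, 8 to 20 for D3 against natural early anagen, 0 to 3 for D8 and D12 against natural late anagen, 0 to 5 for D17, 1 to 13 for the growth-phase change and 0 to 5 for the depilation F test. The count of members highest at P23 ran from 9 to 38 and of those highest at D8 from 11 to 37. Early anagen against telogen stayed at 44.

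Replicate numbers of different groups were not taken as pairs. Same-numbered arrays of 171 pairs had deviations correlated at -0.26 to 0.39, with 32 pairs over 0.1 and the highest value for D3 with D5. Where both groups had 2 arrays, replicates 1 and 2 gave the same value, so these pairs are not independent. Such correlations cannot show whether samples were paired. With the replicate number as a block, mid against early anagen had 7 calls, D8 and D12 against natural late anagen 1 and the depilation F test 1, D3 against telogen 44, D17 against natural early catagen 4 and the growth-phase change 9, and the counts of the other comparisons did not move. With 2 or 3 mice per time point, differences smaller than the spread between mice were not detectable, and some larger ones could be missed. In simulated arrays 200 of 26988 probe sets were changed by a known amount. Of 2-fold changes 0% were recovered for late against mid anagen, P39 against P37, telogen against mid catagen and D5 against D3. The same held for D17 against D8 and D12 and for the depilation F test. In these comparisons 59.5% to 82.5% of 4-fold changes were recovered. The real arrays can differ from this setting, since 5.88% of all probe sets were called between telogen and mid catagen. Among them was 1 basal keratinocyte marker called lower, although no marker of that list lay under -0.62 on the log2 scale. The simulated shares are therefore not the recovery in the real arrays. No call there does not show that a gene stayed level. Kif20a and Ndc80 in telogen lay at the floor on 1 or 2 arrays.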
